A study of Mus musculus with 12 samples.

Results

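The comparison of conventionalized (CV) with germ-free (GF) livers of mice labelled male rested on 6 of the 12 liver RNA sequencing libraries of the series, 3 CV and 3 GF, each made from 1 mouse. Its members were the 11672 of 41128 annotated genes whose mean value over these 6 libraries was at least 10. All mice were C57BL/6 littermates that were born germ-free and stayed in sterile isolators until weaning at about 21 days. The GF mice then remained in isolators without microbes. The CV mice were moved to open cages with used bedding from the same animal facility, which exposes them to the microbes of other mice, for 3 weeks. Livers of both groups were taken at 6 weeks of age, and the labels list no transgene, deletion or drug. The labels named neither the microbes acquired nor the time of day at death, and tied no mouse to a litter, cage or sequencing batch.

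The liver receives the blood that drains the intestine, so products of gut bacteria reach hepatocytes and the resident macrophages (Kupffer cells) before the rest of the body. Hepatocytes make bile acids from cholesterol and join them to taurine, and gut bacteria remove that taurine and alter the bile acid ring. Bile acids and bacterial products act in liver through nuclear receptors, which set the level of genes for lipid use and detoxification, and through receptors for bacterial cell wall parts, which induce acute phase proteins. Many of the same genes also follow the daily clock, feeding and, in mice, sex.

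Values are normalised read counts, that is, the reads of a gene divided by 1 size factor per library. Values of a gene are listed in the order M1, M2 and M3 within each group, and the libraries are named GF M1 to GF M3 and CV M1 to CV M3. Differences are CV minus GF on the log2(value + 1) scale with their standard error (SE), from a limma fit over all 12 libraries in which 4 groups of condition and labelled sex shared 1 estimate of the spread. A gene was called higher or lower where its Benjamini-Hochberg adjusted p in limma was under 0.05. Each group held 3 mice, and the p-values measure only the spread between these mice.

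The tissue and the libraries were checked first. All 10 hepatocyte marker genes were detected, with Alb, the plasma protein albumin, at a mean value of 122272 in GF and 185089 in CV livers. Total reads ranged from 6004479 to 14946450 per library. A set of 7 abundant loci (Lars2, Mir6236, Gm15564, Gm23935, Gm42418, and mt-Rnr1 and mt-Rnr2, which encode the ribosomal RNAs of mitochondria) took 51.7%, 42.3% and 41.8% of the reads of the GF libraries and 5.39%, 21.4% and 21.9% of the reads of the CV libraries. The mitochondrial ribosomal RNA genes alone took 11.5%, 9.79% and 9.36% of GF reads and 1.39%, 5.89% and 6.32% of CV reads. The groups did not overlap, and the difference of the means was -5.68 percentage points (exact two-sided permutation test, p = 0.1, the smallest that 3 against 3 allows). Without CV M3 it was -6.57 points. This share moved with the condition in every result below: 73.5% of its variance over the 6 libraries lay between GF and CV, and its part in the results was not tested beyond the values given here. Library composition and condition cannot be told apart in these samples. The 95% Wilson intervals of these shares, which cover counting error only, were widest in GF M3 (9.336% to 9.383%) and narrowest in CV M1 (1.388% to 1.400%), so counting error was small beside the spread between mice.

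**Figure D1:**
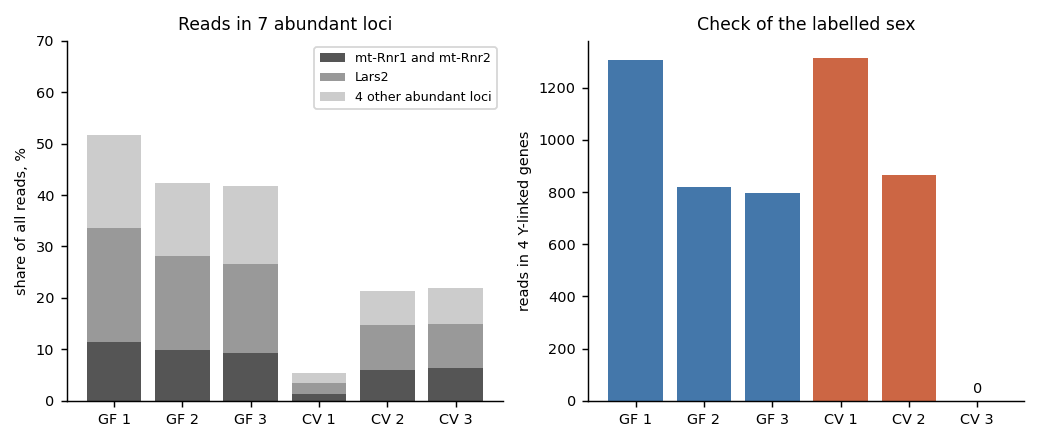
Left, share of all reads (percent) in the mitochondrial ribosomal RNA genes, Lars2 and 4 other abundant loci for each library. Right, reads in 4 Y-linked genes per library. The stacked share was 41.8% to 51.7% in GF and 5.39% to 21.9% in CV libraries, and CV M3 (labelled CV 3) held 0 Y-linked reads.

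One library went against its label. CV M3 held 0 reads in the Y-linked genes examined, which allows a share of up to 3.37e-05% of its reads, whereas the other 5 libraries held 796 to 1314 such reads. Its value for Xist, the RNA that coats the silenced X chromosome of female cells, was 2382, against 4.68 to 21.3 in the others. All 21 tested genes of a list with higher levels in female mouse liver were higher in CV M3 than in any other of the 6 libraries, although 10 of them reached a mean of 10 only through CV M3, which leaves 11 that did not depend on it, and 22 of 25 genes of a male-biased list were lower. By these checks it resembled a female liver. Counts over all genes, and list counts that moved without it, are therefore given with and without the library labelled CV M3. Differences of single genes are from all libraries unless stated. Of the 295 called genes of the lists and rules reported here, 234 kept their call without CV M3 and 61 lost it. Among the genes named by rank below, Kdm5d alone lost its call. The remaining CV livers, CV M1 and CV M2, then stood against 3 GF livers. Other libraries mattered more: of the same 295 calls, 136 were lost without GF M1, 110 without GF M3 and 106 without CV M1. Scaled to reads outside the 7 loci, 58 were lost. Calls of single genes below carry this limit.

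**Figure D2:**
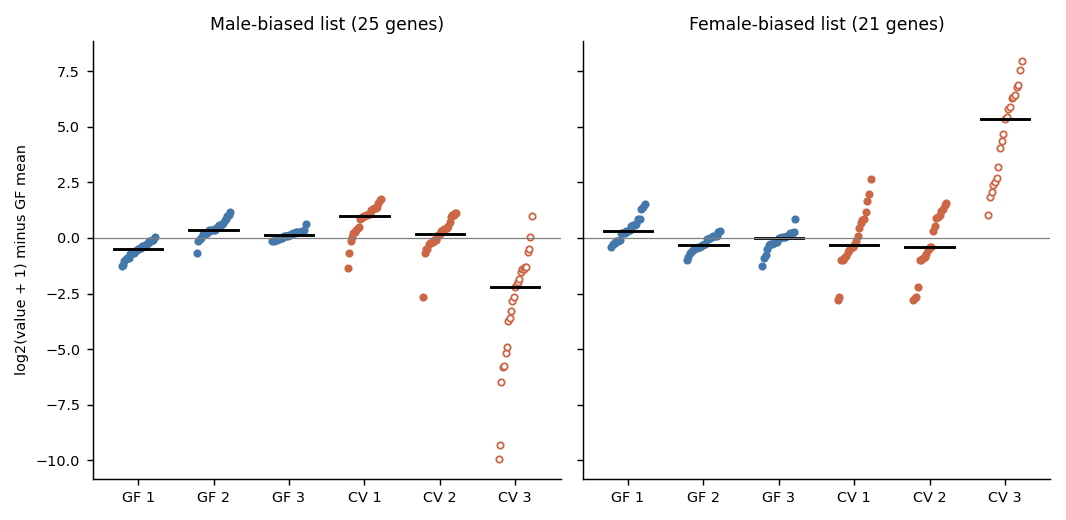
Genes of the male-biased (25 genes) and female-biased (21 genes) lists in each of the 6 libraries, as log2(value + 1) minus the GF mean of the gene, with 1 point per gene, a bar at the median and open points for CV M3. The median of the female-biased genes was 5.34 in CV M3 and between -0.42 and 0.33 in the other libraries, and that of the male-biased genes was -2.22 in CV M3.

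Of the 11672 genes, 3463 (29.7%) were called, 1657 (14.2%) higher and 1806 (15.5%) lower in CV livers. Without CV M3, 2970 genes (25.4%) were called, 1432 (12.3%) higher and 1538 (13.2%) lower, and 2743 of them were also called with it. A mean of at least 10 rested on CV M3 in 70 of the 11672 genes, of which 2 were called higher and 3 lower without it. The 3 CV and 3 GF values did not overlap in 5029 genes (43.1%), with CV above in 2569 (22.0%) and below in 2460 (21.1%). Without CV M3 they did not overlap in 5924 genes (50.8%), 3072 (26.3%) above and 2852 (24.4%) below. Leaving out a library can only keep or raise this count, so 50.8% and 43.1% are not comparable. The median difference over all genes was 0.06. The number of calls fell further without other libraries, to 1627 without GF M1, 2134 without GF M3 and 2198 without CV M1. For each list below, the count is given also for any library whose removal moved it by more than 1.5 times. Each list count is to be read beside the 14.2% higher and 15.5% lower of all genes. A share near these is not particular to a list. The balance of directions over all genes depended on the scale of the libraries. With total reads as the scale, the calls were 2824 higher and 789 lower and the median moved to 0.37. With only reads outside the 7 loci as the scale, there were 874 higher and 2232 lower calls and the median was -0.23. Directions are therefore given relative to the deposited size factors, and no called gene named below changed direction under either scaling. Of 46 lists with at least 5 tested members, 11 had a median of the opposite sign when scaled to reads outside the 7 loci, among them the clock, glucose, interferon, bile acid transport and ribosomal protein lists. With the mitochondrial ribosomal RNA share of each library added to the fit, limma called 3 genes, Id3 and Lum higher and Tbc1d8 lower (Lum and Tbc1d8 were chosen after their values were seen), and 2270 genes had an unadjusted p under 0.05. In that fit 18 of the 295 called genes of the lists and rules reported here turned direction, among them Gadd45g, Socs2, Cyp8b1, Acadvl, Sdha and mt-Nd6.

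**Figure D3:**
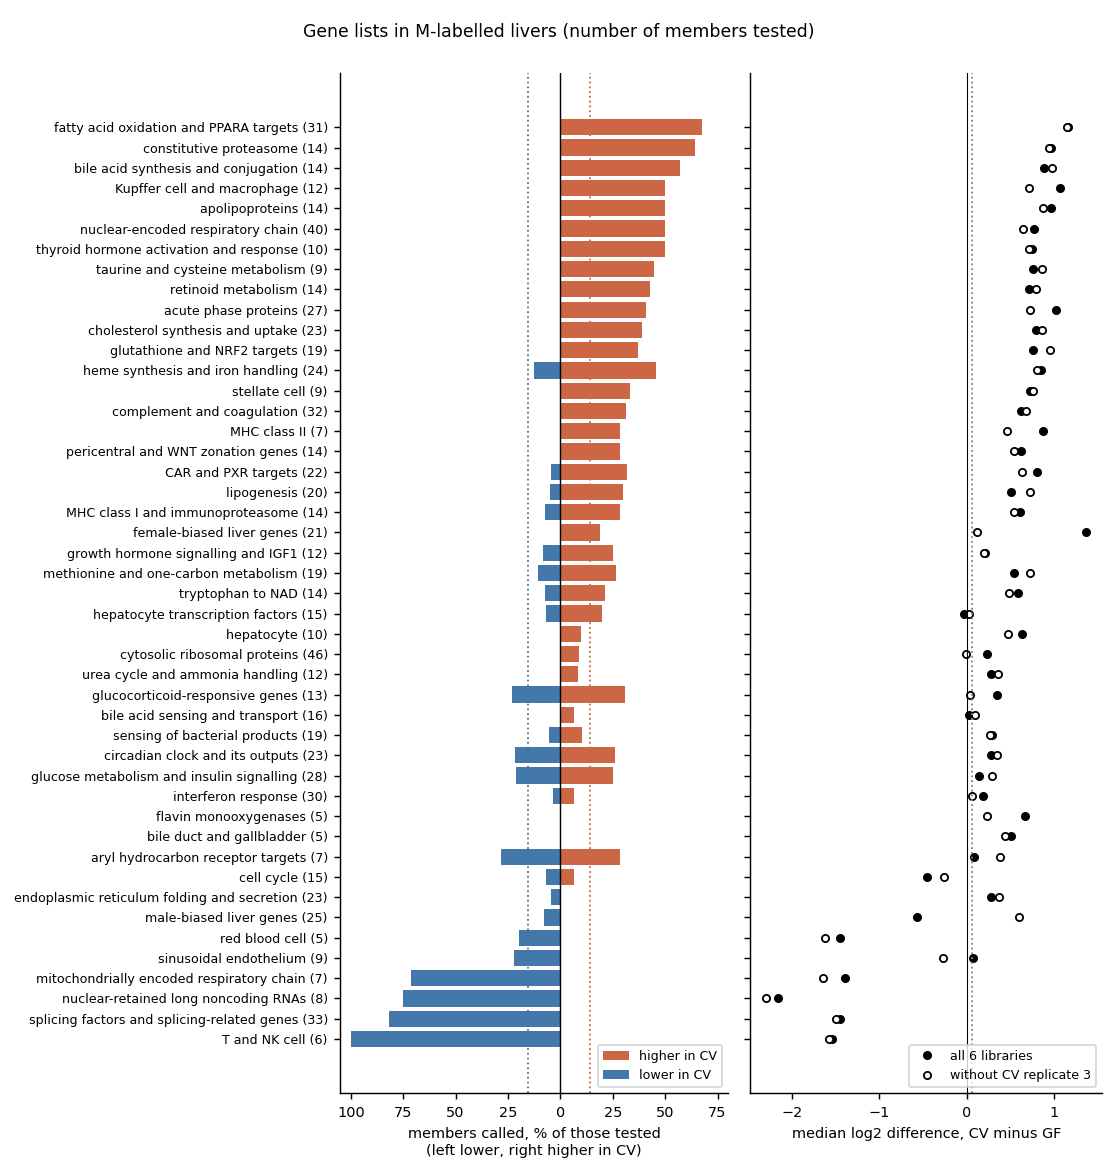
Left, members of each gene list called higher (right of 0) and lower (left of 0) in CV livers, as a percent of those tested, with dotted lines at 14.2% higher and 15.5% lower for all genes. Right, the median log2 difference of each list with all 6 libraries (filled) and without CV M3 (open), with a dotted line at 0.06 for all genes. The nuclear-retained long noncoding RNAs had the lowest median, -2.16.

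The non-overlapping genes that ranked first by adjusted p on the higher side were of mixed function, with metabolic enzymes among them. Apoa4 (ENSMUSG00000032080, GRCm38 chr9:46240696-46243459), an apolipoprotein of triglyceride-rich particles, had values of 28.7, 87.8 and 73.7 in the GF livers and 1044, 1038 and 847 in the CV livers. Every CV liver exceeded every GF liver, by 4.06 ± 0.43 on the log2 scale or 16.7-fold (limma adjusted p = 0.000124). The difference was 4.16 without CV M3. Dio1, the deiodinase that turns the thyroid prohormone into its active form, had values of 394, 564 and 563 in the GF livers and 2643, 1763 and 2236 in the CV livers. It was 4.36-fold higher, with the 3 CV livers within a narrow range (2.12 ± 0.26, limma adjusted p = 0.000284, and 2.11 without CV M3). Arrdc3, an arrestin-related regulator of receptor trafficking, had values of 179.98, 89.2 and 222 in the GF livers and 1523, 1072 and 745 in the CV livers, again without overlap (2.80 ± 0.36, and 3.05 without CV M3).

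The same rule named Vnn1, the pantetheinase induced by the fatty acid receptor PPARA, at 2.36 ± 0.31, and Acot1, a cytosolic acyl-CoA thioesterase, at 2.35 ± 0.33. Sdhd, a membrane subunit of respiratory complex II, was higher by 2.21 ± 0.31 and Dhrs4, a retinal and carbonyl reductase, by 1.81 ± 0.24. Ppp1ca, a catalytic subunit of protein phosphatase 1, was higher by 2.14 ± 0.28, and Tmed1, a cargo receptor of the early secretory pathway, by 2.23 ± 0.29. The last 2 overlap Rad9a and Dnm2 on the opposite strand, and whether the reads were counted by strand was not given in the sources used here. Among the largest differences, Rnf186, a ubiquitin ligase, reached 2.94 ± 0.53 and Pltp, the phospholipid transfer protein of plasma, 2.56 ± 0.47. Acot3, a peroxisomal thioesterase, had CV values of 74.4, 28.6 and 311 against GF values of 9.85, 12.0 and 11.3, and its difference fell from 2.88 to 1.98 without CV M3, the highest library.

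**Figure D4:**
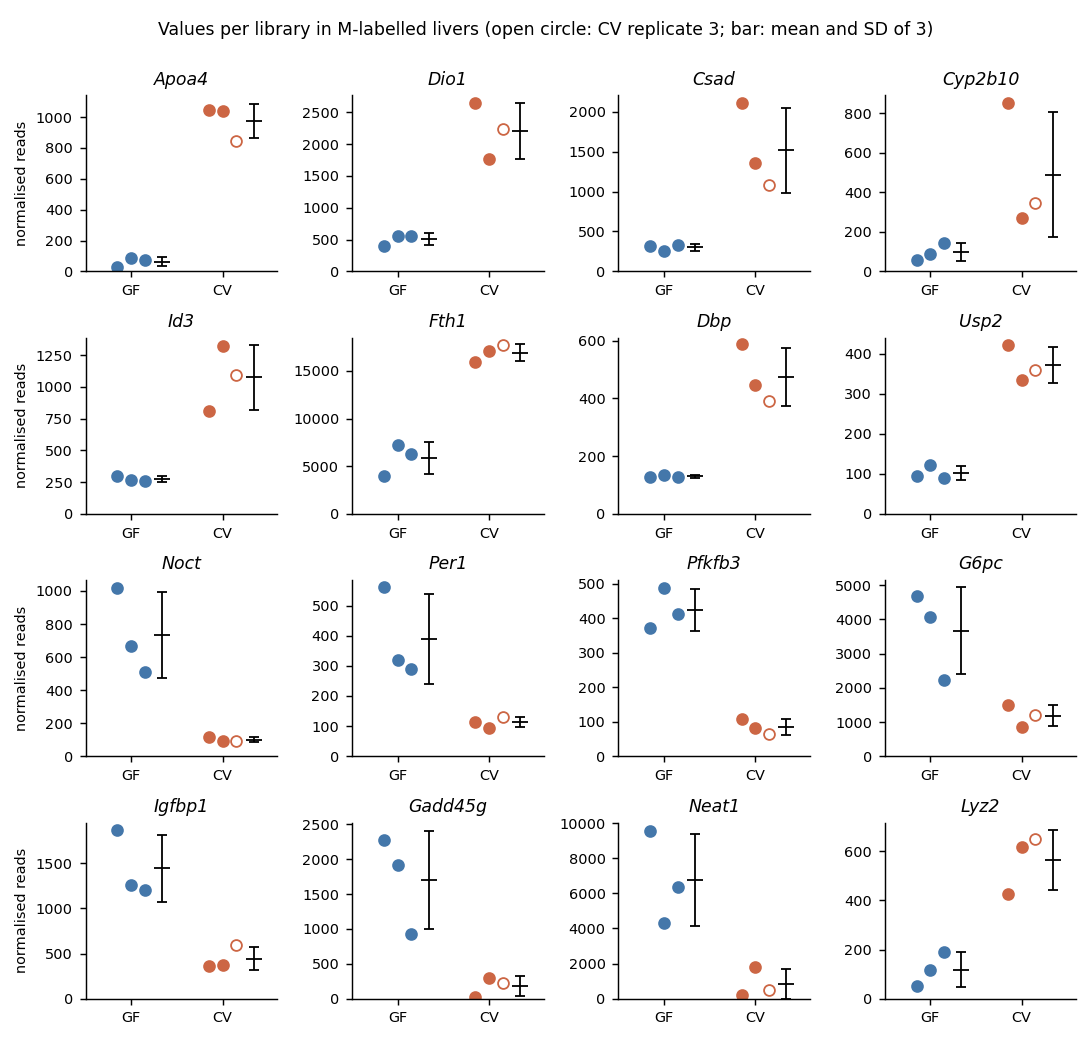
Normalised read counts (linear axes from 0) of 16 genes in each GF and CV liver, 1 point per mouse, with CV M3 as an open circle and bars for the mean and SD of 3 livers. In all 16 genes the 3 CV points lay apart from the 3 GF points, above them in the first 8 genes and in Lyz2 and below them in the other 7.

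On the lower side, Noct, a clock-driven phosphatase of nicotinamide dinucleotide phosphates, had values of 1018, 668 and 510.2 in the GF livers and 119.7, 92.2 and 89.9 in the CV livers. The highest CV liver was below every GF liver, and the CV livers spanned a narrow range (-2.80 ± 0.27, 6.98-fold lower, limma adjusted p = 5.61e-05). Neb, the gene of the muscle protein nebulin, had values of 3885, 1248 and 2372 in the GF livers and 239, 312 and 219 in the CV livers (-3.15 ± 0.34). Pfkfb3, which makes the activator of glycolysis fructose 2,6-bisphosphate, had values of 371, 488 and 412 in the GF livers and 109, 82.7 and 63.6 in the CV livers (-2.33 ± 0.27). All 3 genes were lower in every CV liver, and their differences without CV M3 were -2.73, -3.04 and -2.14. Ttc14, a tetratricopeptide repeat protein, differed by -2.14 ± 0.25, Raph1, an actin regulator, by -1.89 ± 0.23, and Nsd3, a histone methyltransferase, by -2.03 ± 0.24. The zinc finger genes Zfp276, Zfp236, Zfp950 and Zc3h7a differed by -2.21, -2.18, -2.22 and -2.15. Zfp950 overlaps Grk5 on the opposite strand, Zfp276 overlaps Vps9d1 and Fanca there, and Zc3h7a contains the abundant locus Gm23935. Neb, Raph1, Nsd3 and Zc3h7a each contain another annotated gene on their own strand and Zfp276 lies within one, so their reads may be shared with it.

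The largest decreases included antisense and nuclear RNAs. Egfros, antisense to the growth factor receptor gene Egfr, had values of 447, 469.8 and 479 in the GF livers and 4.16, 46.1 and 29.1 in the CV livers (-4.59 ± 0.59). Rapgef4os3 had values of 193, 122 and 205 in the GF livers and 0.520, 35.0 and 31.8 in the CV livers (-3.81 ± 0.80). In both, CV M1 was far below the other CV livers, and the differences without CV M3 were -4.90 and -4.53. Gadd45g, a stress-induced growth arrest gene, had values of 2269, 1922 and 923 in the GF livers and 27.1, 299 and 227 in the CV livers (-3.68 ± 0.73). The rule also named Kdm5d, a Y-linked histone demethylase, whose difference of -3.49 rested on the 0 reads of CV M3 and was -1.40 without it (limma adjusted p = 0.113).

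Bile acid synthesis was the first pathway examined by its members. Of 14 tested enzymes, 8 were higher in CV livers and 0 lower, with a median of 0.88. Cyp7a1, the rate-limiting enzyme of the classic route, had values of 170.1, 194 and 198 in the GF livers and 534, 401 and 362 in the CV livers, without overlap (1.18 ± 0.36, 2.27-fold, limma adjusted p = 0.0229). Cyp8b1, which sets the share of cholic acid, had values of 1325, 655 and 1404 in the GF livers and 8857, 3217 and 1346 in the CV livers. CV M3 lay within the GF range of Cyp8b1 while CV M1 and CV M2 were above it (1.66 ± 0.57, and 2.32 without CV M3). Cyp39a1, the hydroxylase of an alternative route, was highest in CV M3 with values of 132, 129.6 and 318 in CV livers against 19.7, 55.9 and 25.5 (2.49 ± 0.39). Akr1d1, the reductase of the steroid ring, was higher by 1.29 ± 0.29 and Slc27a5, the ligase that activates bile acids for conjugation, by 1.21 ± 0.34. Without CV M3, 7 of the 14 were called higher, and the counts were 2 without GF M1 or CV M1 and 3 without GF M3, where without CV M1 1 was lower. With the scale set by reads outside the 7 loci, the calls were 3 and 1.

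Taurine, the conjugation partner of mouse bile acids, is made from cysteine. Its enzymes Cdo1, the cysteine dioxygenase, and Csad, the decarboxylase of the next step, were both higher. Csad had values of 323, 250.2 and 332 in the GF livers and 2113, 1360.3 and 1080.2 in the CV livers (2.28 ± 0.29), and it overlaps Zfp740 on the opposite strand. Cdo1 had values of 3644, 5772 and 4035 in the GF livers and 12207, 7729.96 and 12428 in the CV livers (1.26 ± 0.34). Both genes separated the groups fully. Sqor and Suox, which oxidise sulfide and sulfite, were higher by 1.75 ± 0.37 and 1.20 ± 0.31, so that 4 of 9 tested genes of taurine and cysteine metabolism were higher and 0 lower, with and without CV M3, and 1 was lower without CV M1. Of 16 genes of bile acid sensing and transport 1 was called, Slc10a1, the sodium-dependent importer of bile acids from blood (1.29 ± 0.31), and 2 were lower without GF M2.

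Some detoxification genes of the receptors CAR and PXR were higher. Of 22 tested targets and receptors, 7 were higher, with and without CV M3, and 1 lower, at a median of 0.80. Cyp2b10, the classic CAR target, had values of 60.0, 86.5 and 146 in the GF livers and 850.4, 269.5 and 344 in the CV livers (2.22 ± 0.42). Cyp3a11, the main PXR-induced P450, had values of 2514, 2485 and 2785 in the GF livers and 12342, 6599 and 8697 in the CV livers (1.78 ± 0.34). CV M1 was the highest liver in both, and no GF liver reached a CV liver. Cyp3a13 was higher by 1.57 ± 0.27, Ugt1a1, the bilirubin glucuronosyltransferase, by 1.92 ± 0.38, and Por, the electron donor of the P450s, by 1.15 ± 0.29. Ugt1a1 shares most of its exons with other Ugt1a genes, and reads may be split among them. The PXR gene Nr1i2 itself was lower (-0.66 ± 0.24), a call that was lost without CV M3 (limma adjusted p = 0.111). No lower call was left without GF M1, GF M3, CV M1 or CV M2 either. Cyp2b13, Cyp3a41a and Cyp3a44 reached a mean of 10 only through CV M3 and are not counted in the fit without it.

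Of 7 targets and partners of the aryl hydrocarbon receptor, which senses indoles and other aromatic compounds, Cyp1a1 (1.42) and Nqo1 (1.13) were higher and Ugt1a6a (-0.95) and the receptor gene Ahr (-0.80) were lower. Ugt1a6a overlaps Ugt1a1 and other Ugt1a genes on its own strand, so its reads may also be split among them. Without CV M3 the only remaining call was Ahr, and without GF M1 or GF M3 none of the 7 was called. Without CV M1 there was 1 call in each direction, and without CV M2 1 lower call. None of the 5 flavin monooxygenase genes was called in limma with or without CV M3, whereas 2 were called without CV M1, 1 in each direction, and 2 higher without CV M2. In glutathione metabolism and among NRF2 targets, 7 of 19 genes were higher and 0 lower, and 5 of 19 without CV M3 (1 without CV M1, 2 without GF M1 and 3 without GF M3). They included the microsomal epoxide hydrolase Ephx1 (1.43 ± 0.30) and glutathione reductase Gsr (1.06 ± 0.30).

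Fatty acid oxidation genes were higher in most members. Of 31 oxidation genes and PPARA targets, 21 were higher and 0 lower at a median of 1.16, and 20 were higher without CV M3 at a median of 1.15. Bdh1, which interconverts the ketone bodies, had values of 528, 713 and 673 in the GF livers and 1914, 1183 and 1766 in the CV livers (1.32 ± 0.28). Cyp4a14, a fatty acid omega-hydroxylase and PPARA target, had values of 1298, 455 and 625 in the GF livers and 2832, 1995 and 4613 in the CV livers, with CV M3 highest (2.05 ± 0.43, and 1.73 without it). The groups were separate in both genes. The mitochondrial steps moved the same way, with Slc25a20, the carnitine carrier, higher by 1.30 ± 0.34, Acadvl and Acadm, the dehydrogenases of very long and medium chains, by 1.29 ± 0.41 and 0.92 ± 0.24, and the last thiolase Acaa2 by 1.43 ± 0.35. Plin2, the coat protein of lipid droplets, was higher by 1.45 ± 0.34.

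Most calls among genes of fat synthesis were higher, beside 14.2% higher and 15.5% lower over all genes. Of 20 lipogenic genes 6 were higher and 1 lower, and 8 and 1 without CV M3. Leaving out any other library gave 4 or 5 higher. Mlxipl, which encodes the carbohydrate-responsive factor ChREBP, had values of 8200.5, 4458 and 5666 in the GF livers and 779.6, 1578 and 1211 in the CV livers, lower in every CV liver (-2.37 ± 0.36, limma adjusted p = 0.000734). The desaturase Fads1 (1.52 ± 0.32), the acyltransferase Agpat2 (1.50 ± 0.30), the last enzyme of triglyceride synthesis Dgat2 (1.29 ± 0.30) and malic enzyme Me1 (1.42 ± 0.36) were higher. Scd1, the stearoyl-CoA desaturase, had values of 4034, 5946 and 4485 in the GF livers and 28755, 11348 and 4663 in the CV livers. CV M3 fell within the GF range, and Scd1 was called when CV M3 was left out (1.93, limma adjusted p = 0.0223, against 0.114 with it).

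Of 23 genes of cholesterol synthesis and uptake 9 were higher and 0 lower (6 without CV M3, 3 without GF M1, 4 without CV M1 and 5 without GF M3), all 9 of them enzymes of synthesis. Fdft1, squalene synthase, differed by 1.78 ± 0.40 and Pmvk, phosphomevalonate kinase, by 1.81 ± 0.31. Fdps, which makes farnesyl diphosphate, was higher by 1.68 ± 0.50. Of 14 apolipoproteins 7 were higher (6 without CV M3, 2 without GF M1 and 3 without GF M3 or CV M1). Among them was Apom, which carries the lipid mediator sphingosine 1-phosphate. Apom had values of 236, 455 and 419 in the GF livers and 2032, 2051 and 1466 in the CV livers (2.36 ± 0.36). Apoa5 and Apoc2, which promote triglyceride hydrolysis, were higher by 1.07 ± 0.32 and 1.21 ± 0.31. Retinoid genes followed with 6 of 14 higher and 0 lower (5 without CV M3 and 3 without GF M1). Retsat, which saturates retinol, had values of 504, 764 and 547 in the GF livers and 5062, 1698 and 2059.6 in the CV livers (2.13 ± 0.38), with CV M1 highest and all CV livers above the GF livers. Rbp4, the plasma carrier of retinol, was higher by 1.38 ± 0.38.

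Clock genes moved in both directions. Of 23 tested clock genes and clock outputs, 6 were higher, 5 lower and 12 not called, and 8 were higher and 4 lower without CV M3. The lower count was 3 without GF M1, GF M3, CV M1 or CV M2. Among activators and their repressors, Per1 had values of 561, 319 and 289 in the GF livers and 115, 95.4 and 131 in the CV livers (-1.72 ± 0.28) and Per2 of 202, 224 and 221 in the GF livers and 96.3, 116 and 88.1 in the CV livers (-1.11 ± 0.29). Every CV liver was below every GF liver in both period genes. The activators Arntl (-1.24 ± 0.42) and Clock (-0.75 ± 0.26) were also lower, and the call of Arntl was lost without CV M3 (limma adjusted p = 0.0504).

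Several outputs of the clock were higher. Dbp, a transcription factor of the D-box, had values of 126, 136 and 129 in the GF livers and 587, 446 and 392 in the CV livers (1.84 ± 0.34, 3.58-fold). Usp2, a rhythmic deubiquitinase, had values of 94.0, 121 and 90.7 in the GF livers and 423, 335 and 359 in the CV livers (1.86 ± 0.33). In both the GF livers lay close together and below all CV livers. Hlf, a relative of Dbp, was higher by 1.07 ± 0.22, and the kinase gene Wee1 by 1.86 ± 0.57. The clock repressors Bhlhe40 and Bhlhe41 were higher by 1.12 ± 0.32 and 2.42 ± 0.60. Nr1d1, which represses Arntl, had values of 445, 294 and 500.3 in the GF livers and 1199, 599 and 551 in the CV livers and was called when CV M3 was left out (1.07, limma adjusted p = 0.0403). The livers were compared at 1 time point each, and its hour was not given.

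The clock activators bind the E-box, letters CACGTG, which reads the same on both strands. The 250 bases before the transcript start were matched for 18 of the clock genes in RefSeq (GRCm38.p6). The E-box stood in 5 of these 18 (27.8%: Per1, Tef, Cry1, Ciart and Bhlhe41), against 1978 of 32851 promoters (6.02%) of the same length. The D-box, TTATGTAA or its reverse complement TTACATAA, stood in 1 of the 18, Per3, and in 269 of 32851 (0.819%). The upstream sequences of Per1, lower in CV livers, and Bhlhe41, higher in CV livers, are printed 5′ to 3′ on the strand of the gene because 2 genes with the same motif differed in direction. Capitals mark the E-box, which begins 166 bases before the start of Per1 (chr11:69098699-69098948, plus strand) and 153 bases before that of Bhlhe41 (chr6:145865421-145865670, minus strand).
Per1: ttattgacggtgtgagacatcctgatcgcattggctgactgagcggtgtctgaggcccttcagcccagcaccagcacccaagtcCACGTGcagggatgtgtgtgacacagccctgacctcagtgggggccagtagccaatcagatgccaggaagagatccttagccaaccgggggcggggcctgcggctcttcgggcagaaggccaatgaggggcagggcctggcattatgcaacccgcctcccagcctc
Bhlhe41: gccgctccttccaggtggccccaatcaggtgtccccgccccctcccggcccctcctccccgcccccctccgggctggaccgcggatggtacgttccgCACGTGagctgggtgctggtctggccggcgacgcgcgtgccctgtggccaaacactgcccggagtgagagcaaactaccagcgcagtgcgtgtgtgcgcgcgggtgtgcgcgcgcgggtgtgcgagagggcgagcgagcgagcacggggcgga

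Of the 4 matched genes called lower 1 held an E-box, as did 1 of the 4 called higher and 3 of the 10 not called. A match describes the letters only.

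Genes of glucose metabolism and insulin signalling were called in both directions, beside 14.2% higher and 15.5% lower over all genes. Of 28 tested genes 7 were higher, 6 lower and 15 not called, with 10 and 6 without CV M3. The higher count was 3 without GF M1 or CV M1 and 4 without GF M3, and the lower count reached 9 without GF M2 or CV M1. The higher genes included Fbp1 (1.75 ± 0.35), which opens the path from triose phosphates back to glucose, the glycolytic enzymes Eno1 (1.76 ± 0.34), Tpi1 (1.73 ± 0.31), Gapdh and Pfkl, and the glucose transporter Slc2a2 (0.91 ± 0.30). Fbp1 had values of 2052, 2148 and 2062 in the GF livers and 12960.3, 5099 and 5286 in the CV livers, and CV M1 stood well above the other CV livers. The 6 lower genes were Pfkfb3, Pfkfb2 (-1.29 ± 0.28), both of which set the level of fructose 2,6-bisphosphate, G6pc, the last enzyme of glucose release, Ppargc1a, Igfbp1 and Irs2. Ppargc1a, a coactivator induced by fasting, had values of 373, 234 and 438 in the GF livers and 104, 60.4 and 104 in the CV livers (-1.94 ± 0.28). Igfbp1, a secreted binding protein repressed by insulin, had values of 1869.7, 1254 and 1202 in the GF livers and 366, 369 and 591 in the CV livers (-1.71 ± 0.42). Irs2, an adaptor of the insulin receptor, had values of 1545, 582 and 356 in the GF livers and 243, 261 and 254 in the CV livers, without overlap but with GF M1 far above the other GF livers (-1.43 ± 0.37). Scaled to reads outside the 7 loci the list held 5 higher and 11 lower genes, and the clock list 5 and 5.

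Of 10 genes of thyroid hormone activation and response, Dio1 among them, 5 were higher and 0 lower (4 without CV M3, 2 without GF M1, GF M3 or CV M1 and 3 without CV M2). The responsive gene Thrsp differed by 1.56 ± 0.56. Thrsp had values of 518, 3479 and 1019 in the GF livers and 6454, 2747 and 2641 in the CV livers, and GF M2 lay within the CV range.

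Iron and heme genes contained members of the bone morphogenetic protein response, which controls the iron hormone hepcidin. Id3 and Id1, transcriptional inhibitors induced by these signals, had values of 296, 270.2 and 257 in the GF livers and 812, 1323 and 1094 in the CV livers for Id3 and of 48.4, 63.9 and 41.1 in the GF livers and 162, 169 and 215 in the CV livers for Id1. They were higher by 1.94 ± 0.24 and 1.82 ± 0.24 with no overlap between groups (limma adjusted p = 0.000288 and 0.000334). Without CV M3 these differences were 1.92 and 1.70. Id3 and Id1 were named by their rank among all genes and do not stand for the whole response. The hepcidin genes Hamp and Hamp2 were also tested, but their values are not given here. The iron store subunits Ftl1 and Fth1 were higher by 1.71 ± 0.38 and 1.57 ± 0.36, the iron exporter Slc40a1 by 0.95 ± 0.22, and Tfrc, the receptor that takes up transferrin, was lower (-1.06 ± 0.29). Ftl1 and Fth1 have near-identical processed copies in the genome, so their values are uncertain. In heme synthesis Urod (1.16), Cpox (0.88) and Alad (0.83) were higher, whereas Uros (-1.16) and Ppox (-0.96) were lower. In all, 11 of 24 genes were higher and 3 lower (9 and 3 without CV M3). The higher count was 7 without GF M3, and the lower count was 1 without GF M1.

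Some acute phase proteins were higher. Of 27 tested, 11 were higher and 0 lower, but 5 without GF M1, 6 without GF M3 and 7 without CV M3, and 1 was lower without GF M2. Without CV M3 the median went from 1.02 to 0.73. The fibrinogen chain Fgg had values of 3265, 6406 and 4786 in the GF livers and 25360.1, 10605 and 12771 in the CV livers (1.70 ± 0.39). Serpina3m, a protease inhibitor, had values of 557, 469.8 and 646 in the GF livers and 1912, 1259 and 1916 in the CV livers (1.59 ± 0.26), and it belongs to a family of close copies. Both separated the groups. Lcn2, an iron-chelator-binding defence protein, had values of 26.0, 87.8 and 55.3 in the GF livers and 84.8, 117 and 532 in the CV livers. Its call rested on CV M3 (1.77 ± 0.61, and 0.97 without it, limma adjusted p = 0.183). Saa2, a serum amyloid A gene, had values of 40.3, 118 and 112 in the GF livers and 115, 122 and 598 in the CV livers. CV M1 lay within the GF range of Saa2, and only CV M3 was far above it. The metallothionein gene Mt2 had values of 131, 59.9 and 45.3 in the GF livers and 125, 220.2 and 2414 in the CV livers, again with CV M3 far above the rest (2.50, and 1.22 without it, limma adjusted p = 0.0856).

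Complement and coagulation proteins were higher for 10 of 32 members and lower for 0 (7 and 0 without CV M3). These calls depended on single libraries, with 0 without GF M1 and 1 without GF M3 or CV M1, where without CV M1 1 was lower. Mbl2, the mannose-binding lectin, differed by 1.56 ± 0.39, the plasmin precursor Plg by 1.25 ± 0.37 and prothrombin F2 by 1.13 ± 0.36. Among 19 genes for sensing bacterial products, Lbp, which binds lipopolysaccharide, had values of 347, 357 and 385 in the GF livers and 721, 483 and 748 in the CV livers (0.82 ± 0.24, and 0.70 without CV M3, limma adjusted p = 0.0639). Pglyrp2, a secreted amidase of peptidoglycan, was higher by 0.99 ± 0.33, and Nfkb1, a subunit of NF-kB, was lower (-0.96 ± 0.22).

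Neither higher call of the sensing list was made without GF M1, and 1 was made without GF M3, CV M1 or CV M3. Its lower count was 2 without GF M2 or CV M2. Few interferon genes were called, with Bst2 (1.07) and Ifi27 (1.04) higher and Stat2 lower among 30 tested. Higher calls numbered 1 without GF M1, GF M3, CV M1 or CV M3, and the lower count was 2 without GF M2 or CV M2. Stat2, a transducer of the interferon receptor, had values of 1168, 635 and 944 in the GF livers and 208, 312 and 278 in the CV livers (-1.76 ± 0.28). In antigen presentation by class I molecules, Tapbp (1.25), H2-Q10 (1.04), H2-D1 (1.02) and Psmb9 (0.83) were higher and the transactivator Nlrc5 (-1.46) was lower among 14. The higher count was 3 without CV M3, 1 without GF M1 or GF M3 and 7 without GF M2. No lower call was left without GF M1, GF M3 or CV M1. In class II, Cd74, the invariant chain, had values of 297, 321 and 361 in the GF livers and 429, 781 and 1352 in the CV livers (1.24 ± 0.36), highest in CV M3, and H2-Ab1 was higher by 1.12 ± 0.36. Neither was called without CV M3 (limma adjusted p = 0.0870 and 0.132), and of the 7 genes of the list 0 without GF M1 or CV M3, 1 without GF M3 or CV M2 and 5 without CV M1 were higher.

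Marker genes of other liver cells moved beside these immune genes. In bulk tissue, fewer cells of a type and less of its RNA per cell cannot be told apart. Of 12 Kupffer cell and macrophage markers 6 were higher and 0 lower (5 without CV M3). Lyz2, the lysozyme of macrophages, had values of 50.1, 116 and 189.9 in the GF livers and 427, 615 and 650.5 in the CV livers (2.41 ± 0.53). C1qa, C1qb and C1qc, which macrophages secrete as complement C1q, were higher by 1.67 ± 0.38, 1.66 ± 0.34 and 1.28 ± 0.35. C1qc was not called without CV M3 (0.92, limma adjusted p = 0.0631). Vsig4 (1.41) and Cd5l (1.20) were also higher, with and without CV M3. Clec4f (0.29), Timd4 (-0.07), Marco (0.93), Adgre1 (0.78), Csf1r (0.35) and Cd68 (0.83) were not called in either fit. The summed value of the 12 genes was 1324, 1488 and 1599.98 in the GF livers and 2152, 3209 and 4504 in the CV livers, so that the groups did not overlap and CV M3 was highest.

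Of the 8 T and NK cell markers 6 passed the filter on low values (Cd3d and Cd4 did not), and these 6 were lower (5 without CV M3, 3 without GF M3). Nkg7, a granule protein of cytotoxic cells, had values of 100.3, 124 and 89.3 in the GF livers and 27.1, 42.9 and 31.8 in the CV livers (-1.61 ± 0.28). Lck, the kinase of the T cell receptor, had values of 40.3, 41.3 and 52.4 in the GF livers and 6.25, 20.7 and 7.27 in the CV livers (-2.06 ± 0.41). Their summed value was 244 to 274 in GF and 65.1 to 107 in CV livers. Of 4 tested B and plasma cell markers 2 were lower, including Jchain, the joining chain of secreted antibodies (-2.64), with 0 without GF M1 and 1 without CV M1. In sinusoidal endothelium, the scavenger receptors Stab2 (-1.63 ± 0.40) and Stab1 (-1.43 ± 0.47) were lower, and 7 of 9 markers were not called. The lower count was 1 without GF M1, GF M3 or CV M1. Bmp2, a bone morphogenetic protein, was also called lower when CV M3 was left out (-1.42, limma adjusted p = 0.0132). Stab1 and Stab2 have long transcripts, a property treated below. Of stellate cell markers Colec11 (1.20), Col1a1 (1.33) and Ecm1 (0.65) were higher among 9. Ecm1 was not called without CV M3 (0.49, limma adjusted p = 0.181), and the count was 1 without GF M1 or CV M2. No bile duct marker of 5 and no neutrophil or monocyte marker of 2 was called in limma, apart from 1 bile duct marker that was higher without CV M1. Of the pancreas and adipose lists, 1 gene each passed the filter and neither was called. Hbb-bt, a beta-globin gene, was lower (-1.68 ± 0.59), a call lost without CV M3 (limma adjusted p = 0.0515), and of the 5 red cell genes 0 without GF M1, GF M3, CV M1, CV M2 or CV M3 and 4 without GF M2 were lower.

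Calls among subunits of the respiratory chain were higher for nuclear genes and lower for mitochondrial genes. Of 40 nuclear-encoded subunits 20 were higher and 0 lower, at a median of 0.77 (17 without CV M3, 10 without GF M1). Sdhd had values of 289, 454 and 442 in the GF livers and 2606, 1503 and 1479.98 in the CV livers, with CV M1 highest and no overlap. Uqcrc1 of complex III and Atp5b, the catalytic subunit of the ATP synthase, were higher by 1.66 ± 0.34 and 1.63 ± 0.36. Of 7 mitochondrially encoded subunits 5 were lower and 0 higher, at a median of -1.39, and 6 of 7 were lower without CV M3. The count was 0 without GF M1, GF M2 or CV M1 and 1 without GF M3 or CV M2. mt-Cytb had values of 150746, 140060.00 and 110304 in the GF livers and 38695, 42336 and 66574 in the CV livers (-1.47 ± 0.52). mt-Nd6 had values of 9392, 11802 and 6936 in the GF livers and 1741, 3621 and 5475 in the CV livers (-1.49 ± 0.45). As with the mitochondrial ribosomal RNA share, CV M1 was lowest and every GF liver was above every CV liver.

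Of 14 constitutive proteasome subunits 9 were higher and 0 lower (2 without GF M1, 4 without CV M1 and 5 without CV M3). Of 46 cytosolic ribosomal proteins 4 were higher, Rplp0 (1.17), Rps6 (0.99), Rpl3 (0.91) and Rpl4 (0.80). Their count was 1 without GF M1, 2 without GF M3, CV M2 or CV M3 and 8 without GF M2, and 14 with total reads as the scale, and the median turned from 0.23 to -0.01 without CV M3. Of 23 genes of folding and secretion in the endoplasmic reticulum 1 was lower, the stress factor Ddit3 (-0.92), and 0 were higher. Ddit3 was not called without CV M3. The higher count was 1 without CV M2 and 2 without GF M2 or CV M3, and the lower count was 0 without GF M2, GF M3 or CV M3 and 2 without GF M1.

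Most RNAs that stay in the nucleus were lower. Of 8 nuclear-retained long noncoding RNAs 6 were lower and 0 higher (5 without CV M3), at a median of -2.16. Malat1, an abundant RNA of nuclear speckles, had values of 92281, 67082 and 76924 in the GF livers and 1889, 14370.00 and 13411 in the CV livers (-3.45 ± 0.59). Neat1, the scaffold of paraspeckles, had values of 9544, 4339.8 and 6373 in the GF livers and 209, 1802 and 492 in the CV livers (-3.49 ± 0.58). Kcnq1ot1, which silences its imprinted neighbours and lies antisense to Kcnq1, had values of 1384, 869 and 1016 in the GF livers and 53.1, 192 and 186 in the CV livers (-3.10 ± 0.37). In each of them CV M1 was lowest and no CV liver reached a GF liver.

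Splicing genes formed a similar group. Of 33 tested, 27 were lower and 0 higher, at a median of -1.44, and 24 were lower without CV M3. Luc7l2, a factor of 5′ splice site choice, had values of 1918, 981 and 1485 in the GF livers and 130.1, 412 and 305 in the CV livers (-2.47 ± 0.35). Clk1, a kinase that phosphorylates splicing factors and keeps part of its own RNA unspliced in the nucleus, had values of 1381, 752 and 1246 in the GF livers and 181, 417 and 314 in the CV livers (-1.92 ± 0.30). Srrm2, a scaffold of nuclear speckles, had values of 6889.5, 2651 and 4023 in the GF livers and 752, 1535 and 1247 in the CV livers (-1.89 ± 0.37). CV M1 was again lowest in all 3. The smaller SR proteins Srsf2 (-0.67), Srsf6 (-0.96) and Srsf7 (-0.98) differed less. The list was drawn up with results of these data known and is not independent evidence of its direction.

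The kind and length of the transcript went with the direction across all genes. Of 376 long noncoding genes tested 143 (38.0%) were lower and 6 higher, and the median was -0.94. Of 11097 protein coding genes 1642 were higher, 1576 were lower and the median was 0.10, and of 115 pseudogenes 7 were higher and 53 lower. The median transcript length of protein coding genes was 2294 bases for those called higher, 4930 bases for those called lower and 3414 bases for all. In the fifth of genes with the shortest transcripts 29.6% were higher and 3.69% lower, and in the fifth with the longest 2.84% were higher and 31.6% lower. Without CV M3 the shares were 23.2% and 3.02% for the shortest and 2.71% and 28.4% for the longest. With the trend on length and GC content removed from each library, 1640 genes were higher and 1331 lower, and 2418 of these calls were shared with the fit without that step.

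**Figure D5:**
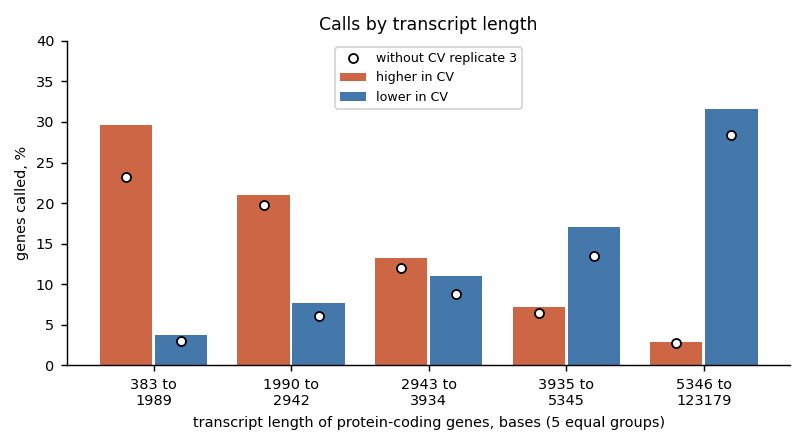
Share of protein coding genes called higher and lower in CV livers (percent) in 5 equal groups of transcript length (bases), from shortest to longest, with open circles for the fit without CV M3. The higher share fell from 29.6% to 2.84% and the lower share rose from 3.69% to 31.6% from the shortest to the longest group.

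Lists of sex-biased and hormone-responsive genes changed their counts with CV M3. Of 25 male-biased genes 0 were higher and 2 lower (Mup21 and Selenbp2) with all libraries (0 without GF M3 or CV M3 and 1 without GF M1 or GF M2), and neither direction held a call without CV M3, where the median moved from -0.56 to 0.60. Of 21 female-biased genes 4 were higher (Acot3, Acot4, Cyp4a14 and Cyp2g1) and 0 lower with all libraries. Without CV M1 or CV M2, 8 were higher. Of the 21 genes 11 reached a mean of 10 without CV M3. In that fit Acot3, Acot4 and Cyp4a14 were higher and Cyp2a4 and Prlr lower, and the median of the 11 was 0.67. Cyp4a12a, a male-specific fatty acid hydroxylase, had values of 1381, 2394 and 1985 in the GF livers and 4664, 1343 and 0.909 in the CV livers. Cyp2b9, a P450 of female liver, had values of 56.4, 10.6 and 18.4 in the GF livers and 23.9, 2.39 and 1862 in the CV livers. In each gene CV M3 alone stood apart from the other 5 livers. Over all genes, 27 were more than 4 times the highest other library in CV M3, among them 13 that reached a mean of 10 only through it, and 55 were below the lowest of them by more than 4 times.

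In growth hormone signalling 3 of 12 genes were higher, the binding proteins Igfbp2, Igfbp3 and Igfals of insulin-like growth factors, and 1 was lower. Without CV M3 Igfbp3 was higher and Socs2 lower, and Cux2, which reached a mean of 10 only through CV M3, is not counted. In the same list 1 gene was higher also without GF M1 or GF M3, and no gene was lower without GF M1, GF M3 or CV M2. Socs2, its feedback inhibitor, had values of 326, 338 and 169 in the GF livers and 21.3, 56.4 and 239 in the CV livers. CV M1 and CV M2 were below the GF livers while CV M3 lay among them (-1.98 ± 0.70, and -2.89 without CV M3). Among 13 glucocorticoid-responsive genes 4 were higher (Klf9, Hsd11b1, Lcn2 and Mt2) and 3 lower, and the higher count was 0 without GF M3 or CV M3 and 1 without GF M1. The 3 lower genes were Per1, the phosphatase gene Dusp1 (-1.37 ± 0.27) and the kinase gene Sgk1 (-0.91 ± 0.33).

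The calls of 6 further lists were as follows. In the route from tryptophan to NAD, Acmsd, which diverts the route away from NAD, was lower (-1.51 ± 0.25), and Afmid (1.69), Haao (0.98) and Nampt (0.73) were higher among 14 genes. The higher count of this route was 2 without CV M3, 1 without GF M3 and 5 without CV M2, and 2 were lower without CV M1. In methionine and one-carbon metabolism 5 of 19 genes were higher, including the methyltransferases Gnmt (1.33 ± 0.37) and Pemt (1.39 ± 0.36), and 2 were lower, including the methionine synthase Mtr (-1.38). This higher count was 0 without GF M1, 2 without CV M1, 3 without GF M3, 4 without CV M3 and 8 without CV M2. The lower count was 0 without GF M1 or GF M3 and 1 without GF M2, CV M1 or CV M3. Of 12 urea cycle genes 1 was higher, Nags (0.97), which makes the activator of the cycle, and it was not called without GF M1 or CV M1, where in the last fit 1 gene was lower. Among 15 hepatocyte transcription factors Cebpa (1.30 ± 0.28), Tbx3 and Foxa2 were higher and Nr5a2 (-0.95 ± 0.30), which drives bile acid synthesis genes, was lower. The higher count was 2 without CV M1, CV M2 or CV M3, and 1 without GF M3, and the lower count was 0 without GF M3, CV M1 or CV M2 and 2 without CV M3. Of 14 pericentral genes 4 were higher (1 without GF M1, GF M3 or CV M1 and 2 without CV M3), including Cyp2e1, the ethanol-oxidising P450 (1.24 ± 0.40). In the cell cycle list of 15, Rrm2 was higher (1.01) and Ccna2, cyclin A2, was lower, with values of 21.5, 12.0 and 21.3 in the GF livers and 2.08, 4.77 and 0.909 in the CV livers (-2.53 ± 0.54). Rrm2 was not called without GF M1, GF M3 or CV M1, and the higher count of the list was 2 without CV M2.

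The 3 CV and 3 GF libraries labelled female gave the same contrast in other mice, and the difference between the 2 contrasts was tested as an interaction. Limma called 0 of 11672 genes (0.00%), 1368 had an unadjusted p under 0.05, and edgeR also called 0. Without CV M3, 4 genes were called, Cyp2a4, Cyp2c69, A1bg and Arl4d, which were chosen after their values were seen and of which the first 3 were among the genes that CV M3 held far above the other livers. A1bg reached a mean of 10 in the M-labelled libraries only through CV M3. Without CV M1, 305 genes were called. Among the smallest unadjusted p-values, Cyp7a1 was higher in CV livers of the M-labelled mice and had values of 149, 207 and 182 in the GF livers and 52.2, 207 and 90.9 in the CV livers of the F-labelled mice, where the groups overlapped. The difference between the contrasts was 2.02 ± 0.51 (limma unadjusted p = 0.00109, adjusted p = 0.418). Klf10, a factor induced by growth signals and the clock, had values of 119.99, 66.5 and 96.4 in the GF livers and 328, 236 and 227 in the CV livers of the M-labelled mice and of 242, 210.1 and 238 in the GF livers and 261, 203 and 208 in the CV livers of the F-labelled mice (interaction 1.54 ± 0.36, limma unadjusted p = 0.000539, adjusted p = 0.418). Arl4d, a small GTPase, had values of 495, 549.6 and 383 in the GF livers and 88.5, 53.3 and 168 in the CV livers of the M-labelled mice and of 252, 234 and 109 in the GF livers and 289.8, 261 and 199 in the CV livers of the F-labelled mice (-2.74 ± 0.53, limma unadjusted p = 8.52e-05, adjusted p = 0.418). Pcm1, a protein of centriolar satellites, was lower in CV livers in both, at 333, 259.5 and 291 in the GF livers and 79.6, 129.6 and 149.9 in the CV livers of the M-labelled mice and 421, 369.7 and 466 in the GF livers and 61.0, 69.9 and 51.8 in the CV livers of the F-labelled mice.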

How the data were processed

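Poly(A)-selected stranded libraries (TruSeq) were made from snap-frozen liver, 1 per mouse, and sequenced on an Illumina HiSeq 3000 per the labels. The submitters' processing notes named HTSeq 0.6.1p1, DESeq2 and the build GRCm38 without their roles. The aligner, the annotation and whether counting used strand were not given in the sources used here. The deposited unit was a normalised signal: the authors divided the reads of each gene by 1 size factor per library. In every library 100% of values were whole multiples of 1 read (within 0.01 reads), and the step equalled the median-of-ratios size factor over 12512 genes. The paper given with the series describes another experiment, so no method was taken from it.

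Groups came from the sample labels. Genes with a mean of at least 10 over the 6 M-labelled libraries were tested on log2(value + 1) with limma 3.58.1 (R 4.3.3) over all 12 libraries, with 4 group means and a variance trend (no robust step), and adjusted by Benjamini-Hochberg at 0.05. On the recovered reads, edgeR 4.0.16 (quasi-likelihood test) called 3731 genes, 1649 higher and 2082 lower. DESeq2 1.42.0 was a further alternative. Only the main limma contrast was tested on simulated counts, which lacked the difference in library composition between GF and CV livers. Gene models came from GENCODE (GRCm38), which held 40254 of 41128 identifiers (97.9%). Any 2 libraries of a group differed by more than sampling noise.

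The text names, for each direction, the 12 non-overlapping genes of lowest adjusted p, the 5 largest differences with a mean of at least 100 in the higher group, the 3 lowest interaction p-values, and members of the 51 lists. Clone and accession names were passed over, and a few list members are counted but not reported here by name. The members, lists and tests were chosen with earlier results of these data known. Depth (6004479 to 14946450 reads) limited genes of low value. Alternatives numbered 33, of which 3 were chosen after seeing the data. Fold changes on the log2(value + 1) scale understate changes of low genes.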

Additional observations from a re-analysis of the deposited data

Results flagged for a closer look

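Of the 11672 genes tested, 16 separated CV from GF livers fully in both labelled sexes, but in opposite directions. In the M-labelled mice alone the CV and GF values did not overlap in 5029 genes (43.1%). The number of opposite genes expected by chance was not tested. Over all genes 29.7% were called in the M-labelled mice, and 3317 of the 5029 without overlap were called. Of the 16, 3 were called in the M-labelled mice and are named here after their values were seen. Their interaction p-values come from the same values that picked them and are not independent evidence. G6pc, the last enzyme of glucose release, had values of 4689, 4071 and 2242 in the GF livers and 1506, 867 and 1203 in the CV livers of the M-labelled mice and of 1461, 1261 and 751 in the GF livers and 2278, 1486 and 1749 in the CV livers of the F-labelled mice. The difference between the contrasts, M minus F, was -2.29 ± 0.47 on the log2 scale (limma unadjusted p = 0.000163, adjusted p = 0.418).

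Slc25a25, a calcium-dependent carrier of ATP and phosphate into mitochondria, had values of 2281, 1878 and 1156 in the GF livers and 692, 736 and 1147 in the CV livers of the M-labelled mice and of 940.4, 705 and 469.6 in the GF livers and 1777, 1125 and 1371 in the CV livers of the F-labelled mice. Its difference between the contrasts was -2.07 ± 0.45 (limma unadjusted p = 0.000298, adjusted p = 0.418). Gab2, an adaptor of growth factor receptors, was higher in CV livers of the M-labelled mice, with values of 6.27, 9.32 and 11.3 in the GF livers and 11.4, 31.8 and 36.3 in the CV livers, and lower in those of the F-labelled mice, with values of 21.1, 23.9 and 28.8 in the GF livers and 16.0, 14.8 and 12.0 in the CV livers. Its difference between the contrasts was 2.09 ± 0.63 (limma unadjusted p = 0.00440, adjusted p = 0.418). In the M-labelled mice the closest GF and CV livers nearly met, at 1156 and 1147 for Slc25a25 and at 11.3 and 11.4 for Gab2. Whether these 2 genes separate under another scaling was not tested. None of the 3 passed the threshold after adjustment over all genes. Leaving out CV M3, the unadjusted p was 0.000321 for G6pc, 0.000126 for Slc25a25 and 0.0170 for Gab2, and Gab2 was no longer called in the M-labelled mice (limma adjusted p = 0.134).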

How the results depend on the processing

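The count of called genes (3463) stayed within 1.5 times under edgeR, voom, DESeq2, the pseudocounts, the filters on low values, each single scaling, thinning and removal of the length and GC trend. It was 1399 at a threshold of 0.01 (592 higher and 807 lower). Leaving out 1 library in turn gave 1627 to 3875 calls, 737 to 1908 higher and 890 to 1967 lower. The lowest counts came without GF M1 (1627), GF M3 (2134) and CV M1 (2198). The 6 M-labelled libraries alone gave 1188 higher and 1385 lower genes, and 2192 in all (985 higher) without CV M3. Without a variance trend 3170 genes were called. The scalings to all reads (2824 higher, 789 lower) and to reads outside the 7 loci (874 and 2232) shifted the balance, and the removal of low genes below a mean of 50 gave 1586 and 1344. The difference in the mitochondrial ribosomal RNA share ranged from -6.57 to -4.11 points when 1 library was left out.

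The labels do not state that replicate numbers pair the mice. The correlations of same-numbered deviations were -0.19, -0.23 and -0.10, and those of differently numbered M-labelled mice ranged from 0.00746 to 0.190. Deviations from means of 3 cannot show whether the mice were paired. A fit with the replicate block gave 1222 higher and 1399 lower genes. With the block and the length and GC trend removed it gave 2049 (1087 and 962).

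With the mitochondrial ribosomal RNA share as a covariate 3 genes were called, 2 higher and 1 lower. Of the 295 called genes of the lists and rules reported here, 1 kept its call, 276 lost it and 18 turned direction, to Acadvl -0.52, Amacr -0.0166, Ces2a -0.11, Clock 0.0682, Cyp8b1 -0.10, Fads2 -0.35, Gadd45g 0.15, Nags -0.11, Pfkl -0.55, Sardh -0.13, Sdha -0.0101, Serpinf2 -0.00602, Sgk1 0.49, Shmt1 -0.13, Socs2 1.16, mt-Nd2 0.10, mt-Nd4 0.0204 and mt-Nd6 0.39. Under the other alternatives 0 of the 295 turned direction. The cause was not tested. The interaction count was 0, and 305 without CV M1, 4 without CV M3, 1 without both CV M2 and CV M3 (A1bg, chosen after its value was seen) and 11 when scaled to all reads. Leaving out 1 library gave 0 to 305. Depth limited genes of low value: at a minimum mean of 1, 1575 genes were higher and 2010 lower of 16088.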
